A study of Homo sapiens with 6 samples.

Results

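The nucleolar ribosome biogenesis factors are 56 genes, chosen by name, whose proteins help to make, modify, fold and cut the ribosomal RNA precursor. Most work in the nucleolus, and some act on later particles outside it. Of the 56, 51 had at least 1 probe set annotated to that gene alone, and all 51 were bright enough to be tested, each on all 6 arrays. They stand among 11998 genes tested. NOP56, DKC1, BOP1, EBNA1BP2 and GNL3 had no probe set of their own and were not analysed as genes here, and any probe set that lists one of them beside other genes enters only a separate count among the additional observations. Ribosomes are assembled in the nucleolus, where RNA polymerase I makes a long precursor RNA that is processed while ribosomal proteins join it. The assembly factors are not part of the finished ribosome. Some modify the RNA as snoRNA-protein particles (snoRNPs), some build the small subunit processome on the front of the precursor, and others shape the large subunit or carry the particles out of the nucleus. Many of their genes are known targets of MYC-family transcription factors.

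The cells were IMR32, an established human neuroblastoma line with an amplified MYCN gene. The treated cells received 118 µM teriflunomide, an inhibitor of the pyrimidine synthesis enzyme DHODH, for 24 h (3 arrays), and the control cells received 0.1% DMSO for 24 h (3 arrays). Treatment of both groups began 12 h after seeding. All samples thus come from 1 cell line at 1 dose and 1 time, and the labels do not say whether the teriflunomide wells also held DMSO. The replicates are labelled biological, but nothing states that they were separate cultures, so the p-values reflect array-to-array spread, which may be technical.

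Values are log2 intensities of single probe sets on Affymetrix arrays, so a difference of 1 is a 2-fold difference, and a value of one gene is not set against that of another. Array-to-array correlations over all probe sets were at least 0.998 within groups and 0.989 to 0.990 between groups. Of 9 neuroblastoma markers with a probe set, 7 had means above log2 5 in both groups. Of the catecholamine enzyme genes, TH (2.19 with teriflunomide, 2.18 with DMSO) was at about the lowest value of 2.18. DBH (2.47 with teriflunomide, 3.41 with DMSO) was dim, and its change of -0.94 was not called (limma adjusted p = 0.0852). Of the 9, PHOX2A (0.76), GATA3 (0.35) and ISL1 (0.22) were called higher and CHGA (-1.46) and MYCN (-0.43) lower. The summed log2 level of the 9 markers was 81.2 to 82.1 on teriflunomide arrays and 82.2 to 83.9 on DMSO arrays. Of 13 blood, endothelial, epithelial, fibroblast and liver markers, 7 were at about the lowest value in both groups, PTPRC, CD3E, PECAM1, CDH5, COL1A2, DCN and ALB, and 2 lay above log2 5, KRT8 and COL1A1. Their summed log2 level was 44.1 to 44.9 with teriflunomide and 43.0 to 43.6 with DMSO, and COL1A1, a collagen gene, was called higher. The difference between 3' and 5' control probe sets of ACTB, which is larger when transcripts or labelled targets are shorter, was 1.62 ± 0.07 with teriflunomide and 1.36 ± 0.03 with DMSO (log2, SD, n = 3 each, exact permutation p = 0.1, the smallest possible here). For GAPDH it was 0.063 ± 0.021 with teriflunomide and 0.049 ± 0.006 with DMSO (log2, SD, n = 3 each, exact permutation p = 0.4). The part of these measures in any result below was not tested.

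Teriflunomide-treated cells had less mRNA signal for nearly the whole set of nucleolar factors. Of the 51 genes tested, 45 fell at an adjusted p under 0.05 (limma, adjusted over all 11998 genes), against 28.9% of all genes. TBL3 alone rose, against 29.7% of all genes, and UTP4, UTP6, NOC4L, NOL9 and NPM1 did not pass. The median change over the 51 was -0.56 log2 units, which is 68.0% of the DMSO level, while the median over all genes was 0.0015. The middle part of the members, between the quartiles, ran from -0.93 to -0.34, against -0.28 to 0.30 for all genes. At least 2-fold falls were called for 9 members, UTP20, UTP15, NOP16, NOL8, RRS1, WDR3, MYBBP1A, MDN1 and NOL6, against 4.53% of all genes. Every teriflunomide array lay below every DMSO array for 46 of the 51, against 33.1% of all genes. The members were listed with earlier results of these data known, so these shares describe the set and are not a test of it. In RNA from whole cultures, less RNA per cell and fewer cells that make it cannot be told apart, and the authors' normalization gives the arrays a common distribution, so a loss shared by all genes would not show.

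**Figure D1:**
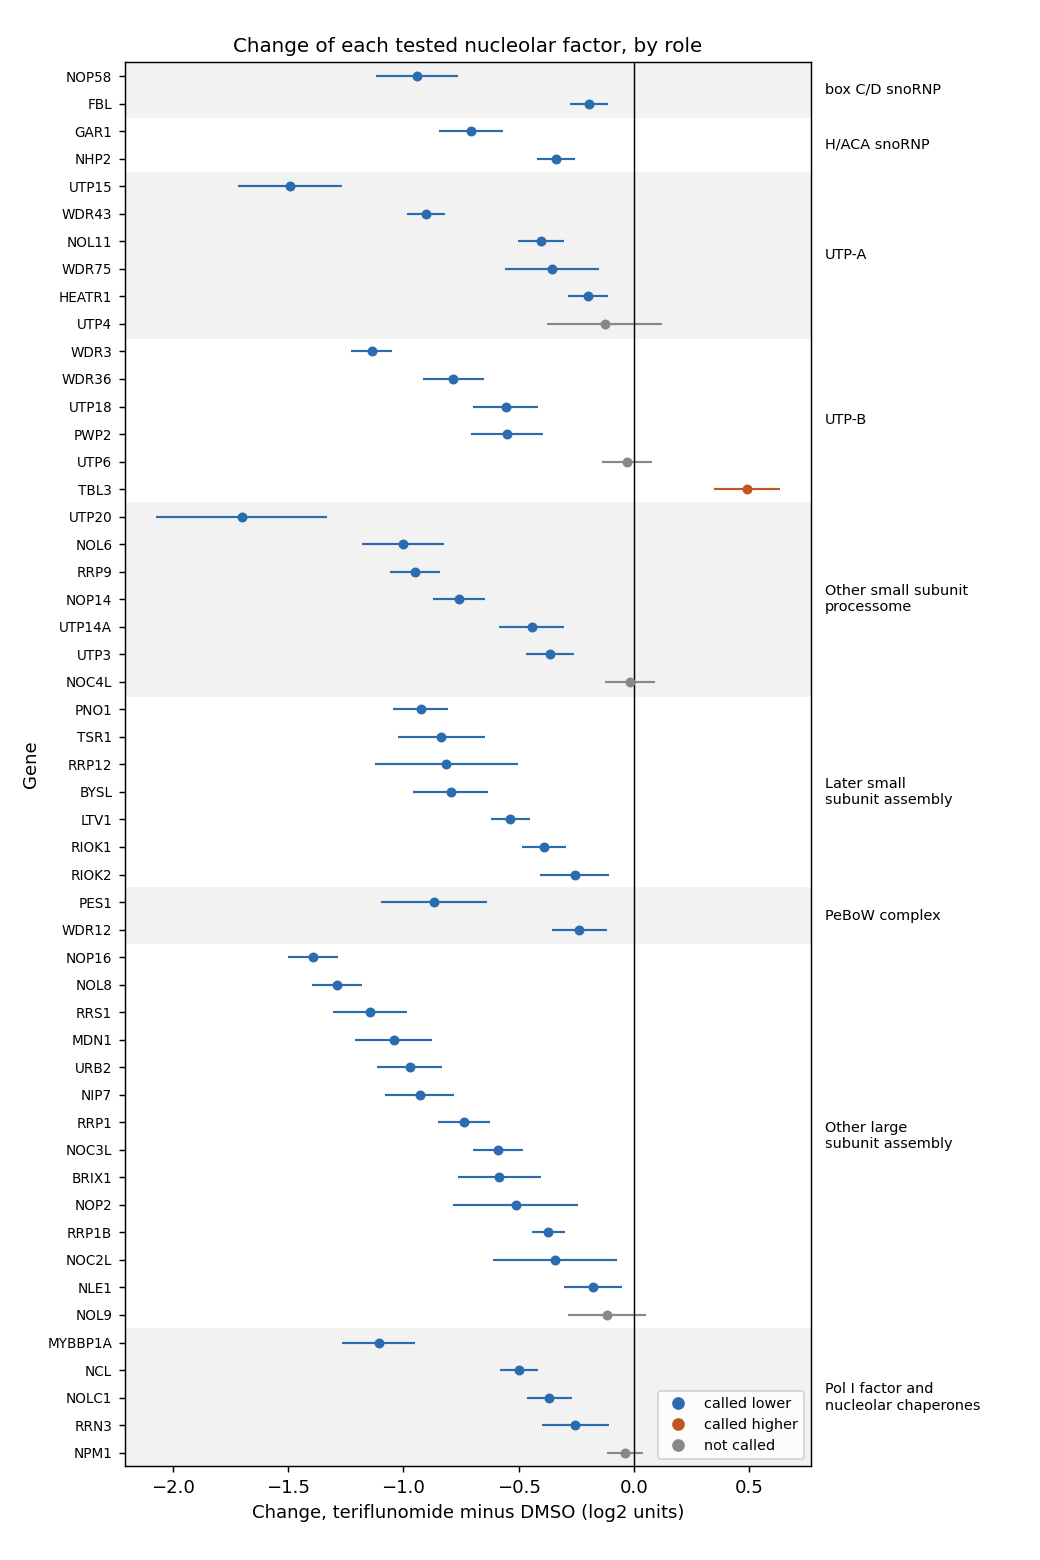
Change of the 51 tested nucleolar factors (horizontal axis, teriflunomide minus DMSO in log2 units), grouped by role; points are limma estimates from 3 arrays per group and bars their 95% confidence intervals. The 45 genes called lower are blue, TBL3 at 0.49 is orange, and the 5 not called are grey.

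The promoters of 4 members are printed here to show the E-box letters described with the results, present in 2 of them and absent from 2: the 2 genes with the largest falls among those that hold an E-box, the gene with the largest fall among those that hold none, and TBL3, which rose. Each runs from 250 bases before to 50 after the annotated start, on the gene's own strand, from RefSeq (GRCh38.p14). Capitals mark the E-box letters CACGTG, which MYC-family dimers are known to bind.
UTP20, chr12:101279855-101280154, plus strand: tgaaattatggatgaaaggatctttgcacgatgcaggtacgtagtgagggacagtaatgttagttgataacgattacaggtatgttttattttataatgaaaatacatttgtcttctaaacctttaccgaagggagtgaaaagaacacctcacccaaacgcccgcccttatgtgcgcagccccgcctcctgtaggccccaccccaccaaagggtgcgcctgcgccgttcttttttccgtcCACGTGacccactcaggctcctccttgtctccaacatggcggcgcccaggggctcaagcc
NOL8, chr9:92325301-92325600, minus strand: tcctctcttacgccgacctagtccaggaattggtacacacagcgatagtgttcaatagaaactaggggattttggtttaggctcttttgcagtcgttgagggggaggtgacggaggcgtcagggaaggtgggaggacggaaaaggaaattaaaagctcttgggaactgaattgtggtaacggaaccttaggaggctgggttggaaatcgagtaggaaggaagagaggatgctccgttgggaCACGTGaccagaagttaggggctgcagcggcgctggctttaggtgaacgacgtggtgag
UTP15, chr5:73565493-73565792, plus strand: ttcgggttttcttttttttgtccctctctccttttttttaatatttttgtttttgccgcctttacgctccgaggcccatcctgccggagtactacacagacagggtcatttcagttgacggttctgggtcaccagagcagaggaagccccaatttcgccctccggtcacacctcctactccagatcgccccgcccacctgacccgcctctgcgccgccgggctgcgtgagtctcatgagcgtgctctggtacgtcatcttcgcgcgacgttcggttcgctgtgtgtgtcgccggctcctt
TBL3, chr16:1971803-1972102, plus strand: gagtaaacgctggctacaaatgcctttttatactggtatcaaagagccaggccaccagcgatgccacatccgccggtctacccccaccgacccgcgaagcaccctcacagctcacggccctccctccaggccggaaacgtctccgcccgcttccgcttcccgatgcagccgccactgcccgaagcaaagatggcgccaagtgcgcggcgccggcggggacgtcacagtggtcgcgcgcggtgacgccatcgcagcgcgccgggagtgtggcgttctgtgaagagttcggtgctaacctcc

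The factors that start small subunit assembly form the processome, in which the UTP-A complex binds the emerging precursor first. UTP15, a UTP-A subunit, read 8.44, 8.20 and 8.32 with teriflunomide, against 9.75, 9.96 and 9.73 with DMSO. Its arrays were more than a log2 unit apart between groups, and the change was -1.49 (SE 0.09, limma adjusted p = 0.000117). WDR43, another UTP-A subunit, read 10.66, 10.64 and 10.59 with teriflunomide and 11.54, 11.54 and 11.50 with DMSO, a fall of 0.90 (SE 0.03). The spread among its replicates was small beside that gap. NOL11 (-0.40), WDR75 (-0.35) and HEATR1 (-0.20) fell less. UTP4 read 12.03, 12.17 and 11.82 with teriflunomide and 12.08, 12.23 and 12.09 with DMSO. Its groups overlapped, and the change of -0.13 had a 95% interval of -0.38 to 0.12. So 5 of the 6 UTP-A genes were called lower, against 28.9% of all genes, with a median of -0.38 over the 6.

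UTP-B, the complex that joins next and contacts the U3 snoRNA, had 4 genes called lower, 1 called higher and 1 not called among its 6. WDR3 read 10.98, 11.03 and 10.94 with teriflunomide, against 12.09, 12.12 and 12.14 with DMSO, and fell by 1.14 (SE 0.04, limma adjusted p = 2.62e-05). WDR36, known as a glaucoma-associated gene, read 9.85, 9.996 and 10.02 with teriflunomide and 10.75, 10.72 and 10.74 with DMSO, a change of -0.78. Both were fully separated between the groups. UTP18 changed by -0.56 and PWP2 by -0.55. TBL3 went the other way, at 8.15, 8.09 and 8.13 with teriflunomide against 7.62, 7.74 and 7.55 with DMSO. All treated arrays of TBL3 lay above all control arrays, and it rose by 0.49 (SE 0.06, 95% interval 0.35 to 0.63, limma adjusted p = 0.000977). It had 1 tested probe set, and its call was the same under every alternative setting tried. UTP6 stood at 11.11, 10.99 and 11.01 with teriflunomide and 11.03, 11.07 and 11.09 with DMSO, an overlap with a 95% interval for the change of -0.14 to 0.08. The mRNAs for proteins of 1 complex were thus called in both directions. Over all genes, 28.9% were called lower and 29.7% higher, so calls both ways are not particular to this complex.

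Outside these complexes, UTP20, a very large scaffold protein of the processome, fell more than any other member on the probe sets used for the genes. On other probe sets LTV1 fell by 2.09 and MDN1 fell by 1.81. The UTP20 probe set read 8.40, 8.61 and 8.88 with teriflunomide, against 10.47, 10.14 and 10.38 with DMSO. No array of one group came within a log2 unit of the other, and the change was -1.70 (SE 0.15, limma adjusted p = 0.000366), or 30.8% of the DMSO level. Of the 11998 genes, 127 fell by more. NOL6 read 6.15, 6.32 and 6.16 with teriflunomide and 7.31, 7.12 and 7.20 with DMSO, which put it at 49.9% of the DMSO level (SE of the log2 change 0.07). RRP9, a U3 snoRNA-binding protein, changed by -0.95, NOP14 by -0.76, the helicase cofactor UTP14A by -0.44 and UTP3 by -0.36. NOC4L, known as the partner of NOP14 in the particle, read 8.79, 8.79 and 8.75 with teriflunomide and 8.84, 8.71 and 8.83 with DMSO. These values overlapped, with a change of -0.02 and a 95% interval of -0.13 to 0.09. Of the 7 genes, 6 were called lower, against 28.9% of all genes, with a median of -0.76 over the 7.

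All 7 members of later small subunit maturation were called lower, against 28.9% of all genes. Their median was -0.79 and their range -0.92 to -0.26. PNO1, a partner of the endonuclease NOB1, read 10.13, 10.15 and 10.27 with teriflunomide, against 11.13, 11.10 and 11.08 with DMSO. Its change was -0.92 (SE 0.05, limma adjusted p = 7.63e-05). TSR1, a GTPase-like protein that keeps translation factors off the immature subunit, read 10.49, 10.64 and 10.76 with teriflunomide and 11.51, 11.43 and 11.45 with DMSO, a change of -0.84 (SE 0.08). Of the 4 TSR1 probe sets tested, 2 fell and 2 did not pass. RRP12, an export factor, changed by -0.81, BYSL by -0.79 and LTV1 by -0.54. The atypical kinases of the RIO family are related proteins that act at the end of this path. RIOK1 read 11.06, 11.04 and 11.05 with teriflunomide and 11.38, 11.47 and 11.48 with DMSO, a change of -0.39 (SE 0.04). RIOK2 read 9.75, 9.85 and 9.64 with teriflunomide and 9.97, 10.02 and 10.01 with DMSO, a change of -0.26 (SE 0.06). Both were separated between the groups, and another RIOK2 probe set fell by 1.01. NOB1 and a further RIO kinase, RIOK3, were not on the member list and were not called, with changes of 0.11 and 0.09. Of the separate list described below that holds both, 45 of 75 genes were called lower, against 28.9% of all genes.

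**Figure D2:**
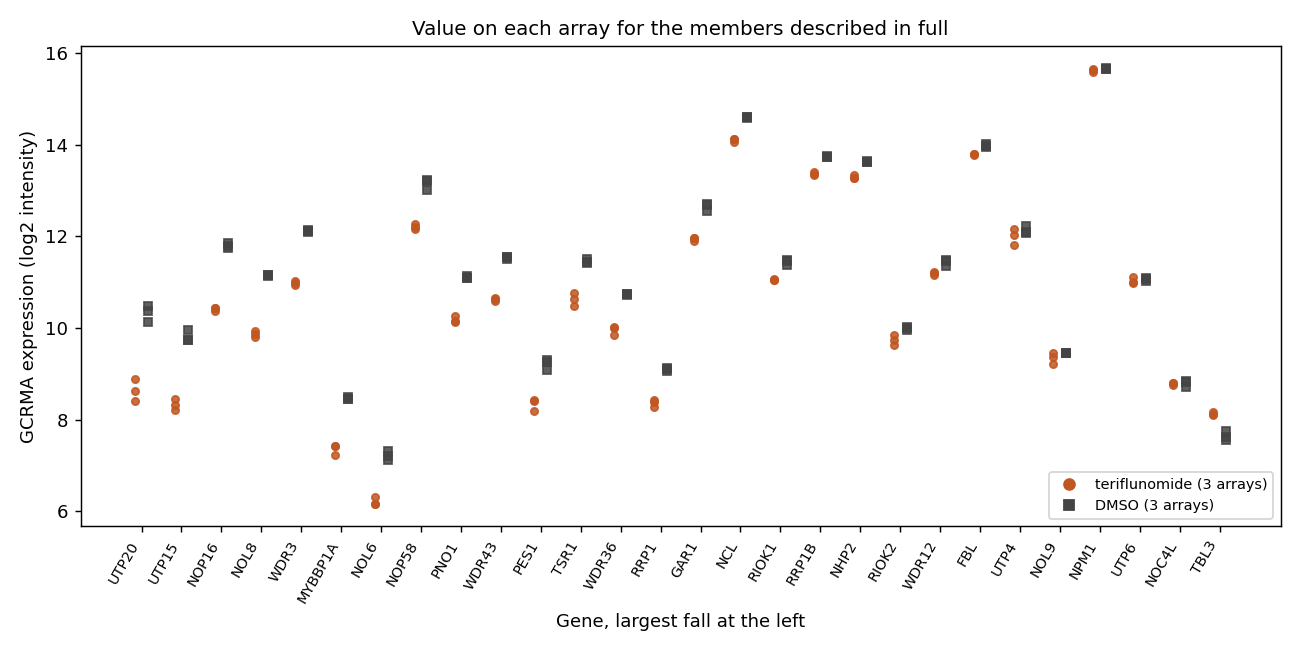
Log2 intensity on each array (vertical axis) for the 28 members described in full, ordered from the largest fall; circles are the 3 teriflunomide arrays and squares the 3 DMSO arrays. All circles lie below all squares for 23 genes and above them for TBL3, the groups overlap for UTP4, UTP6, NOC4L and NPM1, and levels of different genes are not comparable with each other.

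Large subunit assembly begins in the nucleolus too, where the PeBoW complex of PES1, BOP1 and WDR12 acts on the precursor. PES1 read 8.18, 8.40 and 8.43 with teriflunomide, against 9.25, 9.08 and 9.29 with DMSO, and fell by 0.87 (SE 0.09, limma adjusted p = 0.000721). WDR12 read 11.23, 11.15 and 11.21 with teriflunomide and 11.35, 11.46 and 11.49 with DMSO, a change of -0.24 (SE 0.05). Its groups did not overlap, but the nearest arrays were close.

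Of the other 14 large subunit members tested, 13 were called lower, against 28.9% of all genes. All 14 had a negative change, as had 5865 of all 11998 genes, and their median was -0.66. Large subunit genes outside the member list went both ways, and the few named here do not show the shares. In the whole list that holds them, described below, 45 of 75 genes were called lower and 10 higher. Over all genes these shares were 28.9% and 29.7%. Among them MRTO4 (-1.19) and NIFK (-0.65) were called lower, EFL1 (0.39) and RPF1 (0.36) higher, and RPF2 (-0.0009) was not called. NOP16, a nucleolar protein gene known as a MYC target, read 10.37, 10.44 and 10.43 with teriflunomide, against 11.87, 11.75 and 11.80 with DMSO. That gap gave a change of -1.39 (SE 0.04, limma adjusted p = 2.62e-05), or 38.1% of the DMSO level. NOL8 read 9.88, 9.93 and 9.80 with teriflunomide and 11.16, 11.14 and 11.17 with DMSO, and fell by 1.29 (SE 0.04). For both genes the distance between groups was many times the spread within them. RRS1, which loads the 5S RNA particle, changed by -1.14, and MDN1, a giant ATPase that strips assembly factors from the particle, by -1.04. URB2 (-0.97), NIP7 (-0.93), NOC3L (-0.59), BRIX1 (-0.58), the rRNA methyltransferase NOP2 (-0.51), NOC2L (-0.34) and NLE1 (-0.18) fell as well. The NOC2L call had an adjusted p of 0.0391 and was lost with no filter, with values under log2 5 raised to 5, and when teriflunomide replicate 2 or 3 or DMSO replicate 1 or 3 was left out, where limma adjusted p passed 0.05. The NLE1 call (limma adjusted p = 0.0283) was lost with trended, robust eBayes, with no filter, and without teriflunomide replicate 1 or 2 or DMSO replicate 3. NOL9, a polynucleotide kinase that acts on spacer RNA, read 9.21, 9.36 and 9.45 with teriflunomide and 9.45, 9.45 and 9.46 with DMSO. Its highest treated array stood at about the level of the lowest control array, and it did not pass (change -0.12, 95% interval -0.28 to 0.05, limma adjusted p = 0.185). One of its dimmer probe sets fell by 0.42.

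RRP1 and RRP1B are paralogues. RRP1 read 8.38, 8.42 and 8.28 with teriflunomide and 9.11, 9.12 and 9.06 with DMSO, a change of -0.74 (SE 0.05). RRP1B read 13.35, 13.37 and 13.40 with teriflunomide and 13.75, 13.75 and 13.74 with DMSO, a change of -0.37 (SE 0.03). Both fell with fully separated arrays, and the difference between their changes was not tested.

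The snoRNPs modify the precursor at many sites. FBL, the methyltransferase of the box C/D particles, read 13.78, 13.81 and 13.79 with teriflunomide, against 13.96, 14.03 and 13.97 with DMSO, and changed by -0.20 (SE 0.03, limma adjusted p = 0.0039). NOP58, a core protein of the same particles, read 12.16, 12.27 and 12.20 with teriflunomide and 13.20, 13.24 and 13.01 with DMSO, a change of -0.94 (SE 0.07). NOP58 thus stood at 52.1% of its DMSO level and FBL at 87.3%. Of the box H/ACA particles, which make pseudouridine, GAR1 read 11.97, 11.90 and 11.97 with teriflunomide and 12.72, 12.55 and 12.69 with DMSO, a change of -0.71 (SE 0.06). NHP2 read 13.27, 13.27 and 13.34 with teriflunomide and 13.64, 13.63 and 13.63 with DMSO, a change of -0.34 (SE 0.03). In each particle both members tested fell, and none of their arrays overlapped between the groups. Over all genes, 28.9% were called lower and 33.1% had every teriflunomide array below every DMSO array. NOP10, another core H/ACA protein, was not on the member list. Its change was 0.005 (limma adjusted p = 0.94), and its groups overlapped.

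The last 5 members are a polymerase I factor and abundant nucleolar proteins. MYBBP1A, a MYB-binding nucleolar protein, read 7.43, 7.22 and 7.41 with teriflunomide, against 8.49, 8.45 and 8.45 with DMSO, and changed by -1.11 (SE 0.06, limma adjusted p = 0.000102). NCL (nucleolin) read 14.14, 14.12 and 14.06 with teriflunomide and 14.61, 14.61 and 14.60 with DMSO, a change of -0.50 (SE 0.03). Both were cleanly separated. NOLC1, a snoRNP chaperone, changed by -0.37. RRN3, which brings RNA polymerase I to its promoter and has close pseudogenes, changed by -0.25, a call lost with the replicate number as a block. NPM1 (nucleophosmin), a histone and ribosomal protein chaperone, read 15.66, 15.60 and 15.63 with teriflunomide and 15.65, 15.67 and 15.69 with DMSO. Its groups overlapped, the change was -0.04 and its 95% interval was -0.12 to 0.04. Another of its 3 probe sets fell by 0.21 (limma adjusted p = 0.00877 over all probe sets). The probe set that fell had a mean of log2 13.16, and the others, not called, had means of log2 15.65 and 15.36. NPM1 has many pseudogenes, and whether its probe sets also read other transcripts was not tested.

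A separate list held other genes of ribosome biogenesis, such as polymerase I initiation factors, RNA exosome subunits and further assembly factors of both subunits, of which 75 were tested in the same fit. Their median change was -0.24. Falls were called for 45 of the 75, against 28.9% of all genes, and rises for 10 (13.3%), against 29.7%, and 20 were not called. The difference between this list and the nucleolar factors was not tested. TAF1D, of the polymerase I factor SL1, averaged 8.07 ± 0.17 with teriflunomide and 9.52 ± 0.26 with DMSO (log2, SD, n = 3 each), a change of -1.45. EXOSC4, of the RNA exosome, changed by -1.31, and CCDC86 by -1.22. On the other side EXOSC6 averaged 9.99 ± 0.04 with teriflunomide and 9.03 ± 0.16 with DMSO (log2, SD, n = 3 each), and rose by 0.97. EXOSC4 and EXOSC6, subunits of the same exosome ring, thus moved in opposite directions, each on all 3 of its probe sets. EXOSC1 rose by 0.58 on its bright probe set, while a dim one stood at -0.18 without passing. UBTF, an upstream binding factor for the polymerase, has 4 probe sets, of which those at 0.48 (used) and 0.46 passed, that at 0.32 did not, and that at -1.52 passed in the other direction. The direction of UBTF is therefore unsettled. These 6 genes, with the largest called changes each way, had a limma adjusted p of 0.000736 or lower.

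**Figure D3:**
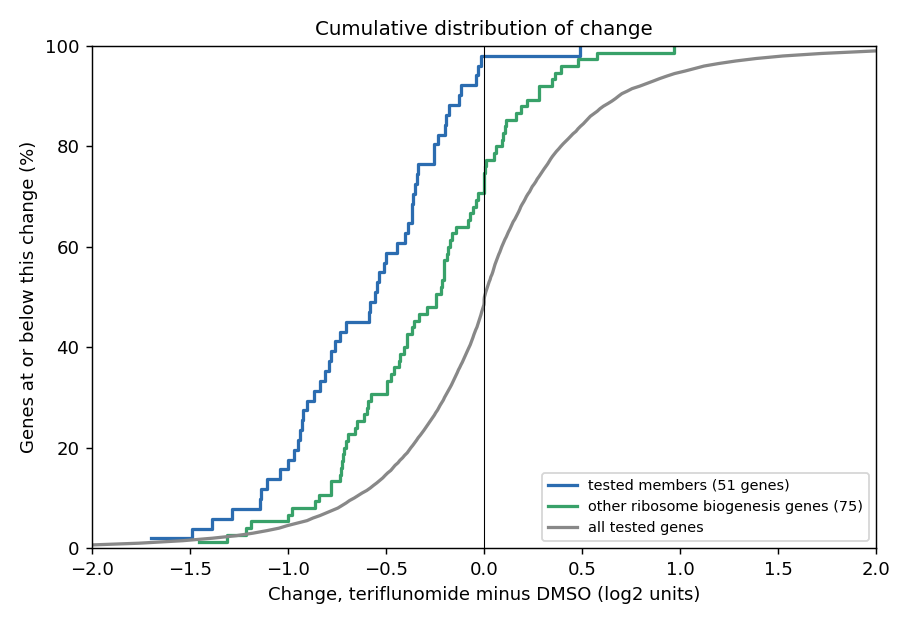
Cumulative share of genes (vertical axis, %) at or below each change (horizontal axis, teriflunomide minus DMSO in log2 units) for the 51 tested members, the 75 other ribosome biogenesis genes and all 11998 tested genes. The member curve lies to the left, with a median of -0.56 against -0.24 for the other ribosome biogenesis genes and 0.0015 for all genes.

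Several members were read by more than 1 probe set, each a separate measurement of part of the gene. The 51 genes had 100 probe sets, 13 of them too dim to test and all with group means under log2 3. Of the 87 tested, 67 fell (limma, adjusted over all 22735 probe sets), against 26.8% of all probe sets, and 1 rose, that of TBL3, against 25.5%. Of 25 genes with 2 or more tested probe sets, 13 fell on every one, against 12.9% of all 6081 such genes, and 0 had probe sets called in opposite directions, against 8.57%. NOP16 fell by 1.44 on its other bright probe set, close to the first, while a dim one (mean log2 2.90) stood at 0.22 and was not called. PNO1 changed by -0.92, -0.89 and -0.49 on its 3 probe sets.

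The sizes of the changes differed between probe sets of the same gene. When the other probe sets were compared with the one used for the gene, array by array, 15 of 36 pairs in 12 genes changed differently (limma, adjusted over all 10737 such pairs), against 30.6% of all pairs. In 9 of the 15 the probe set used, which is the brightest, fell more, and in 6 the other did. Among the 6, LTV1, which travels with the small subunit to the cytoplasm, changed by -0.54 on its bright probe set, the one used, and by -2.09 on a dimmer one, a difference of -1.56 (SE 0.12). RIOK2 changed by -0.26 and -1.01, and NOLC1 by -0.37, -0.86 and -0.92, with the smallest fall on the brightest probe set in each. NOC2L likewise changed by -0.34 and, on a probe set with a mean of log2 4.52, by -1.52. HEATR1 changed by -0.20 on its brightest probe set and by -0.61, -0.12 and -0.01 on its others, the last without passing. Among the 9, WDR36 changed by -0.78 on the brightest and -0.46 on its other probe set, and PNO1 differed on the one at -0.49. PWP2 stood at -0.55 and, on a probe set with a mean of log2 4.83, at -0.04. NOP16 differed on its dim probe set. The TSR1 probe set used and one other changed by -0.84 and -0.79, while 2 more, both with means above log2 10, stood at -0.16 and -0.14 and did not pass. The TSR1 call was lost when probe sets named with a plain suffix stood for the gene (-0.16), and that of RRP12 likewise (-0.01, on a probe set with a mean of log2 3.73). For RRP1 a second probe set stood at -0.03, also without passing. It read 5.91, 5.91 and 5.91 with teriflunomide and 6.01, 5.91 and 5.91 with DMSO. Whether so nearly fixed a value can show a fall was not tested.

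**Figure D4:**
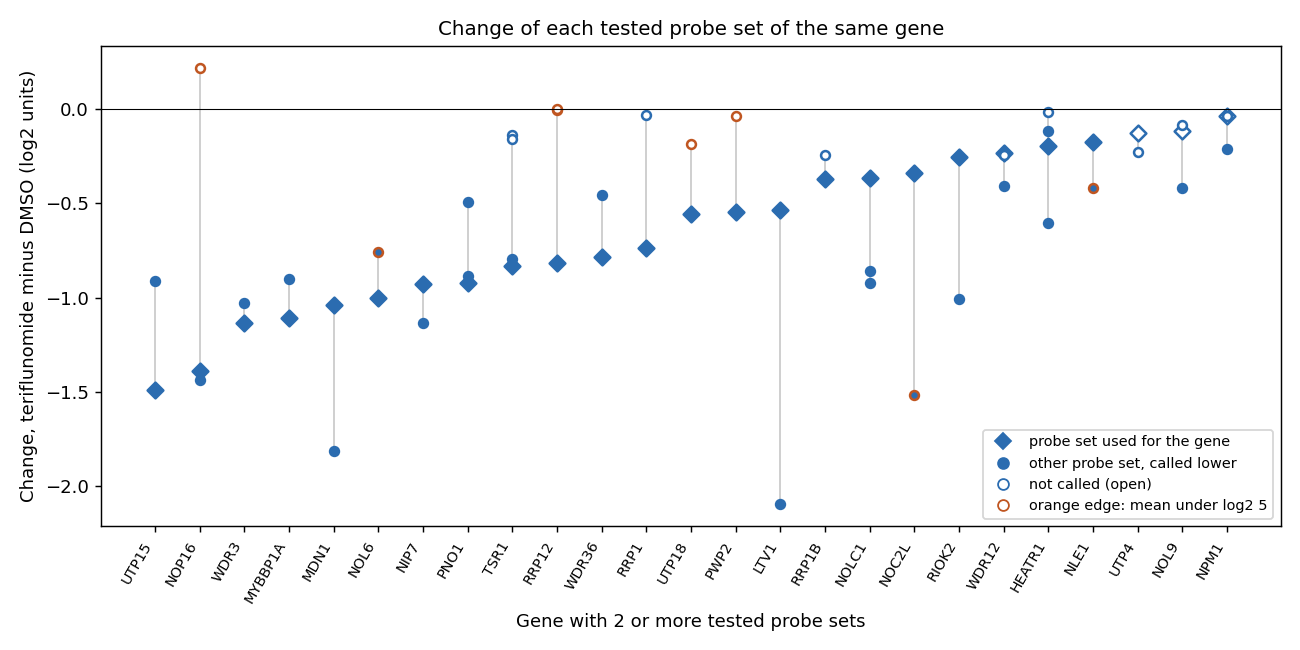
Change of each tested probe set (vertical axis, teriflunomide minus DMSO in log2 units) for the 25 members with 2 or more; diamonds are the probe sets used for the gene, filled symbols are called lower, open ones are not called, and an orange edge marks a mean under log2 5. LTV1 spans -0.54 to -2.09, while the dim probe set of NOP16 is the highest point at 0.22.

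The E-box letters CACGTG, which read the same on both strands, were searched in the RefSeq promoter windows of 300 bases. Of 45 tested members with a promoter in the table, 21 (46.7%) held them, against 13.1% of 9815 tested genes and 8.77% of all 27305 genes with a promoter. Of the 23 sites in members, 20 (87.0%) began within 50 bases of the start, against 38.9% of the 1554 sites in tested genes. In the sequences printed above, the site begins 10 bases before the start in UTP20 and 9 before it in NOL8, and UTP15 and TBL3 hold none. The median change was -0.76 for the 21 members with the letters, a range of -1.70 to -0.13, and -0.36 for the 24 without them. In neither class are the 6 tested members with no promoter in the table. They are RRS1 (-1.14), URB2 (-0.97), NOP58 (-0.94), RRP12 (-0.81), RRP1B (-0.37) and NOLC1 (-0.37). Of the 68 other ribosome biogenesis genes with a promoter, 18 (26.5%) held the letters, and the medians were -0.52 for these and -0.20 for 50 without, and over all tested genes they were -0.02 and 0.01. MYCN itself averaged 14.69 with teriflunomide and 15.11 with DMSO, a change of -0.43 (limma adjusted p = 0.000841), and its part in these changes was not tested. Large falls also occurred with no E-box letters in the window, as in UTP15, NOP16 and WDR3. The ETS letters CCGGAAG, searched on both strands and unable to overlap the E-box letters, were in 42.2% of the 45 members, against 22.5% of tested genes and 45.6% of 68 other ribosome biogenesis genes. Medians with and without the ETS letters were -0.56 and -0.51 in the members, and -0.18 and -0.37 in the other ribosome biogenesis genes. A match is only a run of letters in this window, factor binding was not measured, and these differences were not tested.

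**Figure D5:**
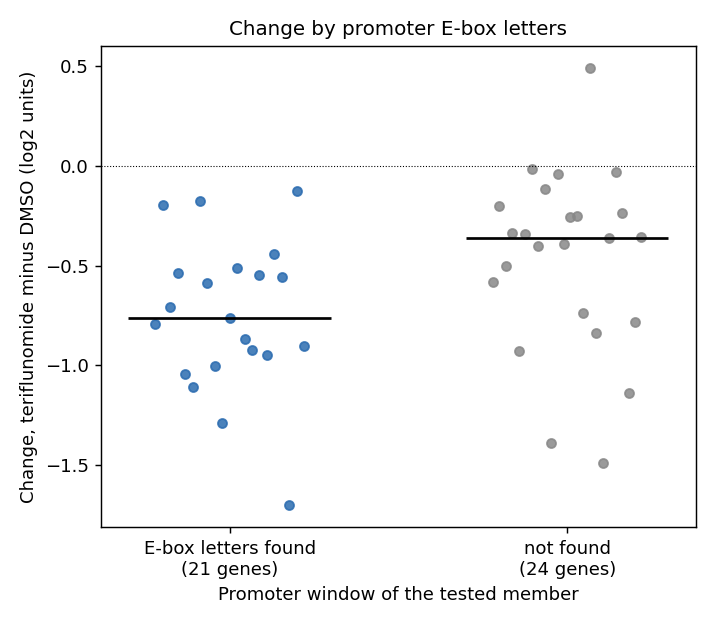
Change of 45 tested members with a RefSeq promoter (vertical axis, teriflunomide minus DMSO in log2 units), for the 21 whose promoter window holds the E-box letters and the 24 whose window does not; each point is a gene and bars are medians. The medians are -0.76 and -0.36, and the points of the 2 classes overlap.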

How the data were processed

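RNA from 3 teriflunomide-treated and 3 DMSO-treated IMR32 samples was profiled, 1 array each. The authors deposited log2 expression values made with GCRMA, per the submitters' processing notes. The sources used here give neither a GCRMA version nor its settings. GCRMA corrects background, brings arrays to a common distribution and summarises probe sets. Every array had 2.18 as its lowest value, held by 33.8% to 34.2% of probe sets, so changes that begin or end near it are less certain. Arrays give no read depth, and their number limits precision.

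Names came from the platform annotation: 41097 of 54675 probe sets had 1 symbol, 1801 several and 11777 none, and 41043 matched GRCh38.p14 gene IDs. Probe sets of 1 symbol at or above the array median on at least 3 arrays were tested, and the brightest by its mean over the arrays stood for a gene. limma 3.58.1 (R 4.3.3; lmFit, eBayes) compared the groups with no covariates, two-sided, with Benjamini-Hochberg adjustment over all features and a threshold of 0.05; the fit was tested on simulated data. Python 3.11.15 was used for tables and drawing. No array coordinates are given, as no build was tied to the arrays; promoters are from RefSeq.

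The members, roles, lists, tests and motifs were chosen with earlier results of these data known. Values on every array are given for the 2 members of each role with the largest called change, those that rose and those of 3 paralogue pairs, and for the members not called, which were added after values were seen; NOP56 of these pairs had no probe set of its own. From the other ribosome biogenesis list, the 3 largest called changes each way are named. NOP10, NOB1, RIOK3 and the large subunit genes of that list were named after the values were seen. The probe set pairs, the 2-fold and overlap counts, the shares over genes with 2 or more probe sets and the probe sets of several genes were also added after the values were seen. Protein sequences were not used here.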

Additional observations from a re-analysis of the deposited data

How the results depend on the processing

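Of the 45 members called lower, 40 were lower under every one of 17 alternatives that tested them, and 0 members had an opposite call under any. The exceptions, NOC2L, NLE1, RRN3, RRP12 and TSR1, are described above. NOL9, not called, was called lower with centring on poly-A spikes and with the mean of probe sets. The number of members called lower ranged from 42 of 48, with the filter at the 75th percentile, to 46 of 51. TBL3 was the 1 called higher each time. The members' median moved to -0.64 with centring on poly-A spikes, which put the median of all genes at -0.08, and to between -0.61 and -0.52 when 1 array was left out, the lowest without teriflunomide replicate 2. Of the other ribosome biogenesis genes, 6 were higher with centring on poly-A spikes, against 10. The value of EXOSC1 was -0.18 with a plain suffix preferred, and that of UBTF was -1.52 there and -0.066 with the mean of probe sets, where other probe sets of these genes enter. For the 29 genes named by rule, 487 values kept direction and call, 2 lost the call (EXOSC1, 0.20 with the mean of probe sets, and TSR1) and 3 turned, as given above. With the replicate number as a block, 44 members were lower. Same-numbered arrays did not deviate together (correlations of 0.04, 0.10 and -0.09 between deviations from the group means), so the numbers were not taken as pairs.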

Other observations

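Probe sets that the annotation ties to a member together with other genes were left out of the gene tests. Of 11 such probe sets, 9 were bright enough to test, and 7 of them were lower with teriflunomide and 0 higher (limma, adjusted over 27290 probe sets), against 25.3% lower among all 1068 tested probe sets of several genes. The 9 are not separate genes, since NOP56, DKC1 and BOP1 are each listed by more than 1 of them. UTP14A and RRN3, listed by others, were already tested as members. The median change of these probe sets was -0.55 and their range -1.17 to 0.29. Which of the listed genes such a probe set reads was not tested.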
